A study of Rattus norvegicus with 24 samples.

Results

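Gene expression in the peri-implant bone of rats was compared between lithium-releasing (Li+) and control (Ctrl) implants at day 7 after surgery. The comparison used the 12 of the 24 arrays of the series that were labelled day 7, with 6 Li+ arrays and 6 Ctrl arrays, and it was described across the 18166 genes that had a probe set with a single gene symbol. The Li+ implant was a plug of poly(lactic-co-glycolic acid) (PLGA), a degradable polymer, loaded with lithium carbonate, and the Ctrl implant was a PLGA plug loaded with sodium carbonate. Both were inserted in drilled sites of the tibia of male Sprague Dawley rats, so that every site of both groups carried a surgical wound, the polymer and a carbonate salt. The labels name the model a tibia fracture. The age of the rats was not given in the sources used here. The rats with arrays at day 7 were numbered 4, 5, 7, 10, 11 and 15, and each gave 1 Li+ array and 1 Ctrl array, which is why the arrays were paired. Each tibia carried 1 implant of each kind. The implants alternated between legs and sites by a schedule, and which leg and site each array came from was not given in the sources used here.

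Lithium inhibits glycogen synthase kinase 3 (GSK3), the kinase that marks β-catenin for degradation, and also several phosphatases that recycle inositol phosphates. When GSK3 is inhibited, β-catenin accumulates, enters the nucleus and activates target genes together with TCF and LEF factors. This canonical Wnt pathway promotes osteoblast differentiation, and its secreted inhibitors, among them sclerostin and DKK1, restrain bone formation. In the first week after an implant is placed, the drilled site holds clot, inflammatory cells, marrow, fibrous tissue and the first woven bone.

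The arrays held the RNA of bone and its marrow. Col1a1, the main collagen chain of bone, had log2 signals between 13.40 and 13.69 on the Li+ arrays and between 13.35 and 13.66 on the Ctrl arrays. Hba-a1, a haemoglobin chain, lay between 12.27 and 12.66 on the Li+ arrays and between 12.18 and 12.75 on the Ctrl arrays. Of 22 osteoblast markers measured under a single symbol, 21 had a mean above the median signal of all probe sets, while 8 of 27 skeletal muscle markers did. Of all 18166 named genes, 11151 did. In such bulk samples, fewer cells of a type and less RNA per cell cannot be told apart. The Ctrl array of rat 10 stood apart from the others, with a mean correlation of 0.979 with the other Ctrl arrays, where the remaining Ctrl arrays had 0.986 to 0.989. Its median log2 signal was 7.231, where the other day 7 arrays had 7.289 to 7.324. Several genes are therefore also given without rat 10, or with the value of its Ctrl array.

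The differences between Li+ and Ctrl implants at day 7 were small. Of the 36495 probe sets tested, 1 passed an adjusted p of 0.05 (0.00274%), and that probe set had no gene symbol. No named gene did, with a smallest adjusted p of 0.985 in limma's test and a smallest unadjusted p of 0.00118. At an unadjusted p under 0.05 there were 1323 probe sets (3.63%), of which 725 were higher and 598 lower with Li+, and 32 of them (0.0877%) also differed by at least 1.5-fold. This balance turned with the processing, to 639 higher and 681 lower after median centring, 662 and 729 with the paired t-test of the Methods and 654 and 741 without rat 10. Among named genes, 151 were higher (0.831%) and 194 lower (1.07%) at that threshold (194 higher and 174 lower without rat 7). Together these 345 were 1.9% of the named genes. Where nothing differs, a share of about 0.05 of all tests has a p under 0.05, and neither the probe sets nor the named genes exceeded that share. Over all named genes, 217 (1.19%) were higher and 276 (1.52%) lower with Li+ in 6 of 6 rats, so that such agreement within single genes is to be read against these shares. By sign alone, 8609 named genes had a positive and 9557 a negative estimate. Genes of a list can vary together, so the signs in a list are not independent. The paired t-test of the Methods gave 607 named genes at an unadjusted p under 0.05 and 0 probe sets after adjustment.

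The precision was enough to bound most differences. The median size of the log2 fold change over named genes was 0.05, its 99th percentile was 0.25, and the median standard error was 0.08. For 17989 of the 18166 genes (99%), the 95% confidence interval of the fold change lay within 1.5-fold in either direction. Only Ankrd34c and Fmod had an estimate beyond 1.5-fold, and Fmod did not pass an unadjusted p of 0.05.

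**Figure D1:**
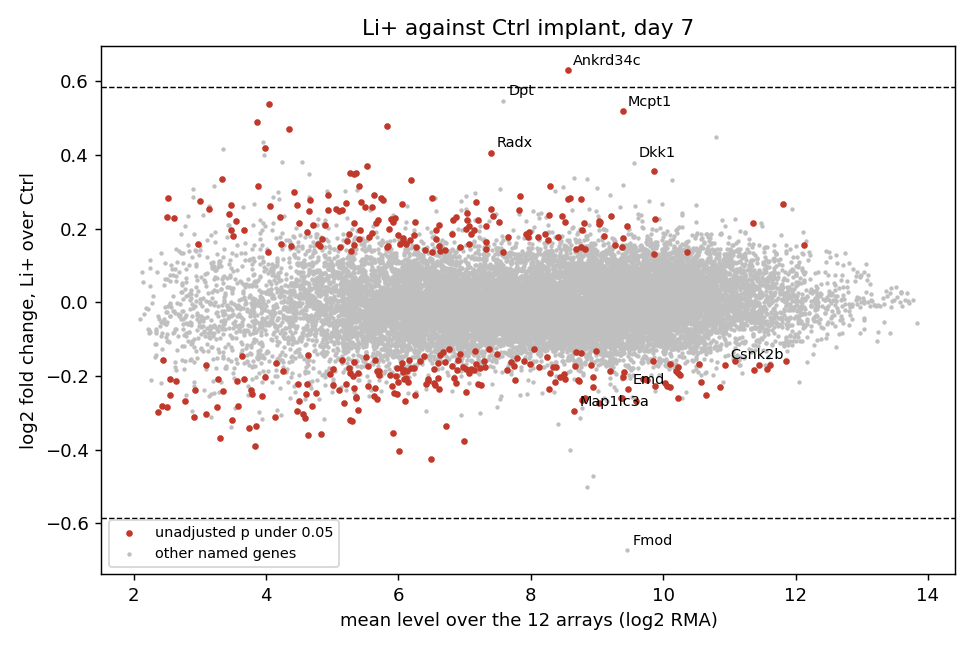
Log2 fold change of Li+ over Ctrl implants (vertical axis) against the mean log2 RMA level over the 12 arrays (horizontal axis) for the 18166 named genes at day 7, with genes at an unadjusted p under 0.05 in red and dashed lines at 1.5-fold. Most genes lie close to 0 at every level, and only Ankrd34c (0.63) and Fmod (-0.67) lie outside the dashed lines.

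The 1 probe set that passed the adjusted test, 17601731, was lower with Li+ in 6 of 6 rats. Its log2 signal had a lowest value of 2.13, a median of 2.31 and a highest value of 2.98 on the Li+ arrays, against 3.50, 4.38 and 4.68 on the Ctrl arrays. The groups did not overlap, and all 12 values were far below the median signal of 7.30. The log2 fold change was -1.85 with a standard error (SE) of 0.10 and an adjusted p of 0.0014 in limma's test. For 17601731 the adjusted p was 0.527 with the paired t-test of the Methods and 0.945 when limma estimated the spread from all 24 arrays. At day 28 the same probe set had a log2 fold change of -0.24.

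Among the lower genes with a signal above the median, Emd had the smallest p value. It encodes emerin, a protein of the inner nuclear membrane. Its signal had a lowest value of 9.21, a median of 9.34 and a highest value of 9.45 on the Li+ arrays, against 9.38, 9.61 and 9.77 on the Ctrl arrays. The groups overlapped, but within each of the 6 rats the Li+ site was lower, by 0.11 to 0.37 on the log2 scale. The log2 fold change was -0.24 with a standard error of 0.06 and the unadjusted p was 0.00342.

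Sumf2, a member of the sulfatase-modifying factor family of the endoplasmic reticulum, had values from 8.32 to 8.47 with a median of 8.40 on the Li+ arrays and from 8.48 to 8.73 with a median of 8.61 on the Ctrl arrays. These groups did not overlap, and the log2 fold change was -0.20 (SE 0.06). Ap1s1, a subunit of the clathrin adaptor AP-1 of the trans-Golgi network, ranged from 9.39 to 9.53 on the Li+ arrays and from 9.55 to 10.12 on the Ctrl arrays. It also showed no overlap, with a log2 fold change of -0.27 (SE 0.09) that was -0.17 without rat 10. Of the 18166 named genes, 3 higher and 12 lower ones showed no overlap between Li+ and Ctrl arrays. Whether this is more than random ordering of the arrays would give was not tested.

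Cnpy3, a chaperone that Toll-like receptors need to reach the cell surface, had a log2 fold change of -0.26 (SE 0.08) and was lower in 6 of 6 rats. Dok3, an adaptor that restrains signalling in myeloid and B cells, had -0.17 (SE 0.06), and Zfp36, which encodes the mRNA-destabilising protein tristetraprolin, had -0.22 (SE 0.07), each lower in 6 of 6 rats. Without rat 10, Cnpy3 had -0.19, Dok3 -0.15 and Zfp36 -0.16. Of 29 measured Toll-like receptors and their chaperones, Cnpy3 was the 1 member lower at an unadjusted p under 0.05 and 0 were higher. Over all named genes 1.07% were lower and 0.831% higher. The median log2 fold change of the list was 0.01, against -0.00495 over all named genes.

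Map1lc3a, which encodes a light chain 3 protein that is attached to the autophagosome membrane, had the largest difference among the lower genes that had a signal above the median and an unadjusted p under 0.05. Its signal had a lowest value of 8.37, a median of 8.51 and a highest value of 8.65 on the Li+ arrays, against 8.65, 8.70 and 9.31 on the Ctrl arrays. The log2 fold change was -0.30 (SE 0.10) and -0.19 without rat 10, whose Ctrl array held the highest value. Of the 30 measured autophagy genes, Map1lc3a was lower and Optn, an autophagy receptor, was higher (0.17, SE 0.07) at an unadjusted p under 0.05. At that threshold 1.07% of all named genes were lower and 0.831% higher. In the autophagy list 15 members had a positive and 15 a negative estimate.

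The others of the 12 lower genes with the smallest p were Adprh, Itpripl1, Or51q1d, LOC691939, Bcl7b and Slc39a11, with log2 fold changes between -0.22 and -0.18. All but Or51q1d were lower in 6 of 6 rats. Ffar2, a receptor for short-chain fatty acids on neutrophils, Csrnp1, a nuclear factor, and Hsd17b8, a mitochondrial dehydrogenase, had -0.27, -0.26 and -0.26. Without rat 10, Csrnp1 had -0.15 and Hsd17b8 -0.16, and without rat 15, Ffar2 had -0.17.

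Ankrd34c, an ankyrin repeat gene, was the only named gene that was beyond 1.5-fold at an unadjusted p under 0.05. Its signal had a lowest value of 8.08, a median of 8.97 and a highest value of 9.45 on the Li+ arrays, against 7.43, 8.32 and 8.87 on the Ctrl arrays. The groups overlapped, and the Li+ site was higher in 5 of 6 rats and lower in rat 11 (-0.27). The log2 fold change was 0.63 with a standard error of 0.18 and an unadjusted p of 0.0083, and 0.47 without rat 15, which had the largest difference (1.45).

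Other genes higher with Li+ were Radx, which acts at stalled DNA replication forks, and Mcpt1, a mast cell protease. Radx had values from 7.18 to 8.04 on the Li+ arrays and from 6.86 to 7.54 on the Ctrl arrays, with a log2 fold change of 0.41 (SE 0.12) and a higher value in 5 of 6 rats. Mcpt1 had values from 9.28 to 9.95 on the Li+ arrays and from 8.40 to 9.79 on the Ctrl arrays, with a log2 fold change of 0.52 (SE 0.22) and 0.32 without rat 10. Both groups overlapped for each of these genes.

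Rpgr, a protein of the connecting region of the primary cilium, was higher in 6 of 6 rats (0.24, SE 0.07). So were Atl1, an endoplasmic reticulum fusion protein (0.23), Ankef1 (0.21), Fam135a (0.28), Plekhg1 (0.18) and Elovl4, which elongates very long fatty acids (0.22). Without rat 10, Rpgr had 0.18, Atl1 0.17 and Fam135a 0.19. Sncg, γ-synuclein (0.21), Agtr1a, the receptor for angiotensin II (0.25), Gucy1a1, a subunit of the nitric oxide receptor guanylate cyclase (0.22), and Ptcd3, a mitochondrial ribosome protein (0.27), were higher in 5 of 6 rats. Of 39 measured genes of the primary cilium, Rpgr was the 1 member higher at an unadjusted p under 0.05 and 0 were lower. Over all named genes 0.831% were higher and 1.07% lower. A positive estimate was found for 31 of the 39, where 8609 of the 18166 named genes had one, and the median was 0.05. On the Ctrl array of rat 10 the mean level of the cilium list was the lowest of the 12 (-0.18 from the mean of all arrays, with the highest at 0.08), and its part in the positive estimates was not tested.

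**Figure D2:**
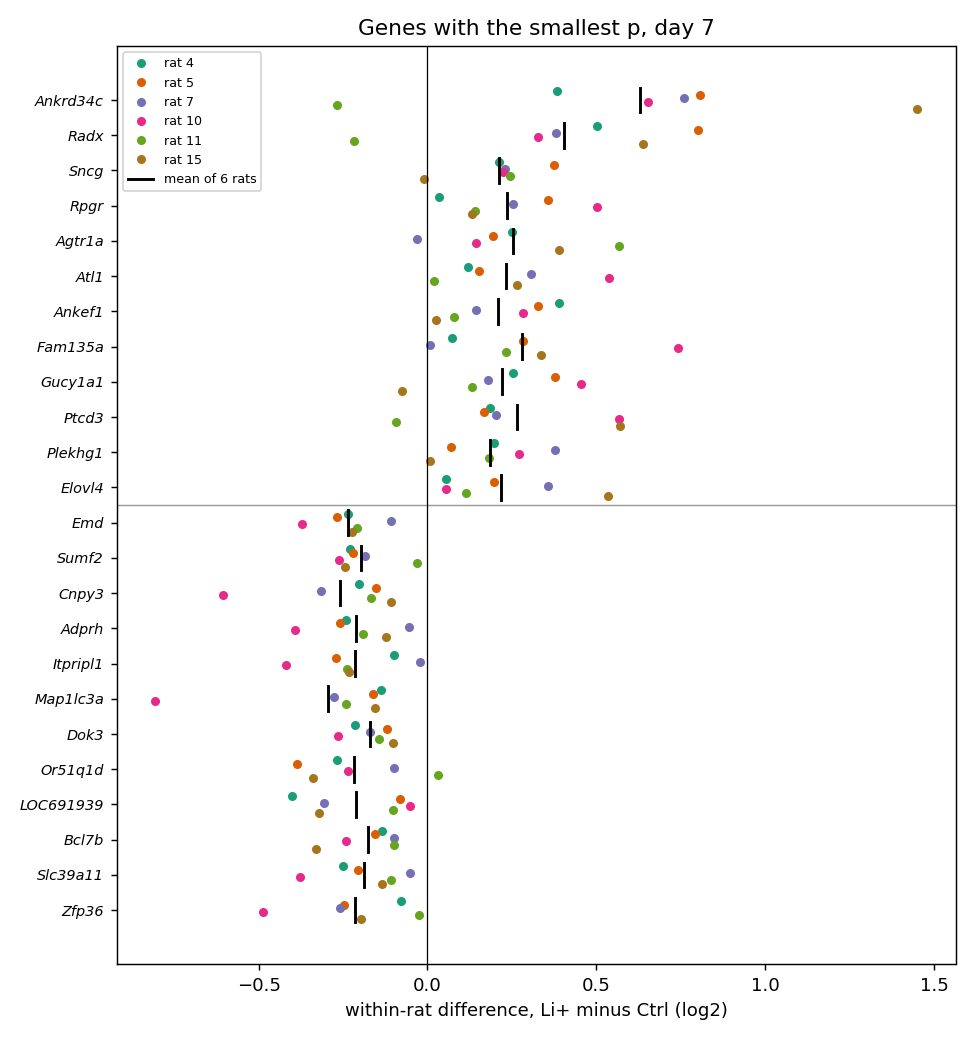
Within-rat difference, Li+ minus Ctrl, on the log2 scale (horizontal axis) for the 12 higher (above the line) and 12 lower genes with the smallest unadjusted p at day 7, with 1 point for each of the 6 rats and a bar at their mean. The differences of the lower genes are small and mostly on the same side of 0, with rat 10 often the farthest, and Ankrd34c spreads from -0.27 in rat 11 to 1.45 in rat 15.

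The mRNAs of phosphatases that lithium inhibits and of inositol supply showed no difference past the unadjusted threshold. Of 27 measured genes of lithium-inhibited phosphatases and inositol supply, 0 were higher and 0 lower at an unadjusted p under 0.05, and their median log2 fold change was -0.00015. Impa1, the inositol monophosphatase that lithium inhibits, ranged from 10.95 to 11.29 on the Li+ arrays and from 10.88 to 11.29 on the Ctrl arrays. Inpp1, which removes phosphate from inositol bisphosphates, was higher in 5 of 6 rats with a log2 fold change of 0.11 (SE 0.07).

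In the list of GSK3 and the β-catenin destruction complex, 28 genes were measured, 2 were lower and 0 higher at an unadjusted p under 0.05, where 1.07% of all named genes were lower and 0.831% higher. Ctnnbip1, an inhibitor of the binding of β-catenin to TCF factors, had a lowest value of 7.74, a median of 7.80 and a highest value of 7.98 on the Li+ arrays, against 7.82, 7.96 and 8.18 on the Ctrl arrays. Its log2 fold change was -0.16 (SE 0.06, unadjusted p = 0.0378), lower in 5 of 6 rats. Csnk2b, the regulatory subunit of casein kinase 2, had -0.17 (SE 0.07, unadjusted p = 0.0428), lower in 6 of 6 rats, and -0.11 without rat 10, whose Ctrl value of 11.36 was above the range of 10.90 to 11.03 of the other Ctrl arrays.

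Ctnnb1, which encodes β-catenin, did not differ past the threshold (log2 fold change 0.05, SE 0.08), and the estimate was -0.01 without rat 10. Gsk3b had a log2 fold change of 0.14 (SE 0.09), with values from 11.30 to 11.41 on the Li+ arrays and from 10.74 to 11.32 on the Ctrl arrays, the lowest in rat 10. Its within-rat difference was 0.62 in rat 10 and between -0.01 and 0.16 in the other 5 rats. Axin2, a target and inhibitor of the pathway, had values from 7.67 to 7.86 on the Li+ arrays and from 7.69 to 8.09 on the Ctrl arrays, with a log2 fold change of -0.06 (SE 0.06). Of 39 measured Wnt target genes and TCF factors, 0 passed an unadjusted p of 0.05 in either direction. Positive estimates numbered 16 and negative ones 23, against 8609 and 9557 over all named genes.

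Of 25 measured Wnt ligands and secretion genes and of 15 measured Frizzled and LRP receptors, 0 passed the unadjusted threshold. Among receptors, Lrp5, a Wnt co-receptor, had a log2 fold change of 0.08 (SE 0.08) and Fzd2 of -0.13 (SE 0.15), and these were 0.03 for Lrp5 without rat 15 and -0.03 for Fzd2 without rat 7. At an unadjusted p under 0.05, 0.831% of all named genes were higher and 1.07% lower. Among the 15 secreted inhibitors, 1 was higher and 0 were lower. This was Sost, the gene of the osteocyte protein sclerostin, which had a lowest value of 8.53, a median of 9.29 and a highest value of 9.52 on the Li+ arrays, against 8.42, 8.88 and 9.54 on the Ctrl arrays. Its log2 fold change was 0.22 (SE 0.09, unadjusted p = 0.0367).

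Dkk1, another secreted inhibitor, had a larger but less even estimate. Its values lay between 9.15 and 10.28 on the Li+ arrays and between 8.49 and 10.24 on the Ctrl arrays, with a log2 fold change of 0.38 (SE 0.18, unadjusted p = 0.0718). Rats 10 and 15 had differences of 1.18 and 0.995, and the other 4 rats lay between -0.17 and 0.20. Without rat 10 the log2 fold change was 0.22.

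Fosl1, the AP-1 subunit FRA1, had a lowest value of 7.52, a median of 7.92 and a highest value of 8.24 on the Li+ arrays, against 7.70, 7.87 and 7.90 on the Ctrl arrays. The groups overlapped, and its log2 fold change was 0.06 (SE 0.07), with a 95% confidence interval from -0.11 to 0.23, and 0.0056 without rat 4. Aspn, the matrix proteoglycan asporin, had -0.04 (SE 0.31) with a 95% confidence interval from -0.75 to 0.68, so that neither direction could be told. Smad2, a transducer of TGF-β signals, was higher in 6 of 6 rats by a small amount (0.07, SE 0.05), and Rac2, a GTPase of blood cells, had -0.10 (SE 0.06). A2m, the protease inhibitor α2-macroglobulin, had 0.32 (SE 0.16) and 0.19 without rat 11, and Acan, Cxcl2, Sfrp5, Prkca and Prss34 lay between -0.40 and 0.05. The lowest of these, that of Cxcl2, was -0.03 without rat 7, and Acan had -0.24, and -0.08 without rat 4.

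Of 14 measured AP-1 subunits, 0 passed an unadjusted p of 0.05. A negative estimate was found for 11 of them, where 9557 of the 18166 named genes had one. Fos, with values from 8.31 to 8.82 on the Li+ arrays and from 8.39 to 9.23 on the Ctrl arrays, had a log2 fold change of -0.19 (SE 0.10). The mean AP-1 level was highest of all 12 arrays on the Ctrl array of rat 10 (0.25), where the other Ctrl arrays lay between -0.08 and 0.035.

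**Figure D3:**
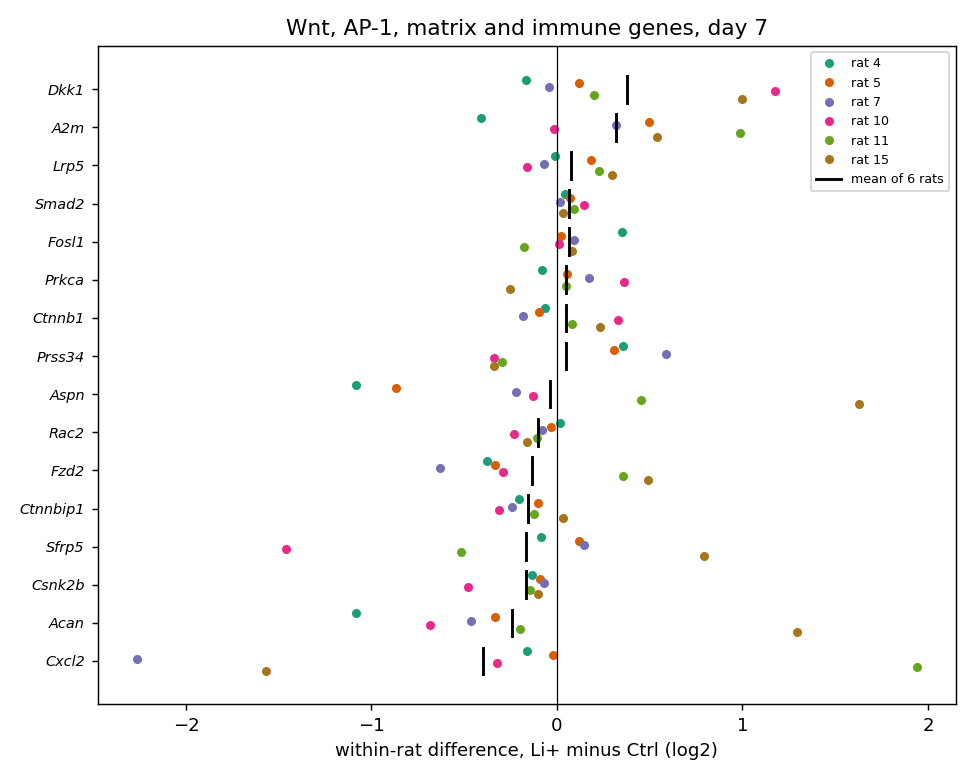
Within-rat difference, Li+ minus Ctrl, on the log2 scale (horizontal axis) at day 7 for 16 genes of the Wnt pathway, AP-1, matrix and immunity, ordered by their mean, with 1 point for each of the 6 rats and a bar at the mean. Points of Smad2 lie close together above 0, those of Csnk2b lie below 0 with rat 10 (-0.48) away from the rest, and those of Aspn run from -1.08 to 1.63 and those of Cxcl2 from -2.27 to 1.94.

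The rats differed in the direction of the difference between their Li+ and Ctrl sites. Over the 11151 named genes above the median signal, the within-rat differences of rats 4, 5 and 7 correlated with each other (Pearson's r from 0.32 to 0.51), and each correlated negatively with rats 11 and 15 (from -0.64 to -0.21). Rat 10 lay between -0.09 and 0.20 with every other rat. These correlations are across genes, which are not independent replicates, and are given as a description.

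The fibrous matrix and erythroid lists had opposite signs in each of the 6 rats. The list of fibrous matrix and its cross-linking had a mean difference of -0.31 in rat 4, -0.23 in rat 5 and -0.485 in rat 7. It had 0.08 in rat 10, 0.26 in rat 11 and 0.57 in rat 15. The erythroid list ran the other way, with 0.52, 0.22 and 0.61 in rats 4, 5 and 7, and -0.15, -0.22 and -0.43 in rats 10, 11 and 15. At an unadjusted p under 0.05, of 36 measured matrix genes 0 were higher and 1 was lower (Fbln1, a fibulin, -0.14, lower in 6 of 6 rats). Over all named genes 0.831% were higher and 1.07% lower. Of 25 measured erythroid genes 0 were higher and 0 lower at that threshold. A positive estimate was found for 22 of the 25, where 8609 of the 18166 named genes had one. The erythroid median was 0.11, with list levels from -0.59 to 0.41 on the Li+ arrays and from -0.50 to 0.56 on the Ctrl arrays.

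Osteoblast markers had a mean difference between -0.49 in rat 7 and 0.37 in rat 15, and of 22 measured, 0 were higher and 0 lower at the unadjusted threshold. Osteocyte markers, 11 genes that include both Sost and Dkk1, had a median log2 fold change of 0.18, with mean differences of 0.605 in rat 10 and 0.45 in rat 15, and -0.17 in rat 7. Phex, an osteocyte endopeptidase, ranged from 10.62 to 11.40 on the Li+ arrays and from 9.03 to 11.49 on the Ctrl arrays, the lowest in rat 10. The part of osteocyte content in the estimates of Sost and Dkk1 was not tested.

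Markers of other cells that a drilled site can hold varied between rats as well. The megakaryocyte and platelet list, which includes the mast cell gene Ms4a2, had mean differences from -0.77 in rat 15 to 0.52 in rat 4, with 0 of 17 members past the unadjusted threshold. The skeletal muscle list ran from -0.58 in rat 15 to 0.445 in rat 4. Its mean level ranged from -0.20 to 0.35 on the Li+ arrays, and on the Ctrl arrays it was 0.65 in rat 15 and between -0.14 and -0.02 in the others. The part of muscle at these sites in the results was not tested.

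**Figure D4:**
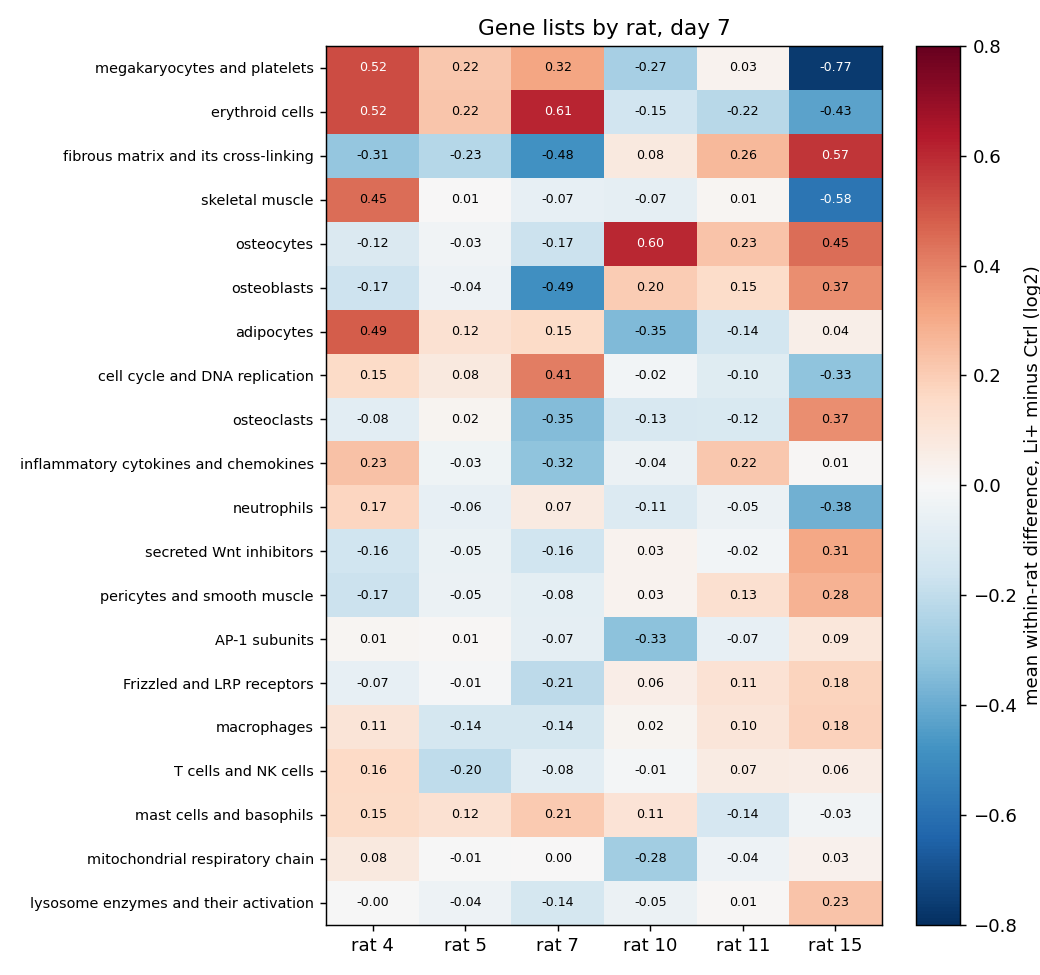
Mean within-rat difference, Li+ minus Ctrl, on the log2 scale (colour and printed value) of the measured members of 20 gene lists (rows, those whose difference varied most between rats) in each of the 6 rats (columns) at day 7. Erythroid and megakaryocyte lists are positive in rats 4, 5 and 7 where the fibrous matrix list is negative, and rat 15 shows the opposite.

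Several of the genes with the largest spread of the within-rat difference belong to the fibrous matrix. Fmod, the collagen-binding proteoglycan fibromodulin, had a lowest value of 8.40, a median of 8.91 and a highest value of 10.32 on the Li+ arrays, against 8.14, 9.92 and 11.01 on the Ctrl arrays. The within-rat difference lay between -1.73 and -0.92 in rats 4, 5, 7 and 10, and was 0.04 in rat 11 and 1.46 in rat 15. The mean was -0.67 with a standard error of 0.39, and -1.10 without rat 15.

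C1qtnf3, a secreted C1q and TNF-related protein, Fndc1 and Aspn had the same pattern over the rats, with rat 4 lowest and rat 15 highest. C1qtnf3 ranged from 7.84 to 10.02 on the Li+ arrays and from 7.49 to 10.41 on the Ctrl arrays, and its difference ran from -2.31 to 1.83. Dpt, dermatopontin, was highest in rat 4 (1.90) and lowest in rat 15 (-0.40).

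Chemokines varied without a shared order. Cxcl2, a neutrophil attractant, ranged from 6.67 to 11.29 on the Li+ arrays and from 6.99 to 11.31 on the Ctrl arrays, with differences of -2.27 in rat 7, -1.57 in rat 15 and 1.94 in rat 11. Cxcl13, a B cell attractant, ranged from 9.05 to 10.25 on the Li+ arrays and from 8.33 to 11.79 on the Ctrl arrays. Its log2 fold change was 0.08 with a standard error of 0.47. Of 45 measured cytokines and chemokines, 0 passed an unadjusted p of 0.05.

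**Figure D5:**
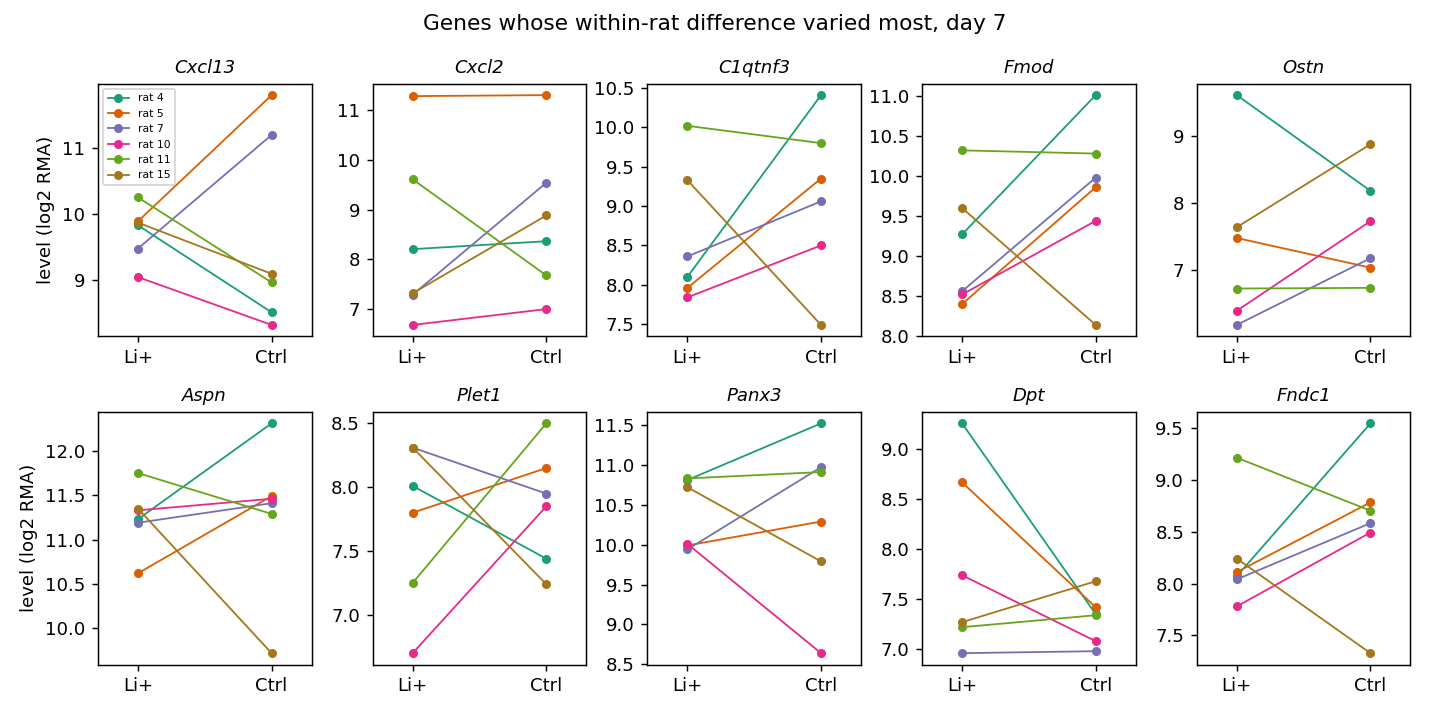
Log2 RMA level (vertical axis) at the Li+ site and the Ctrl site of each of the 6 rats at day 7, joined by a line, for the 10 genes whose within-rat difference varied most. Every panel holds rats with the Li+ site higher and rats with it lower, and for Fmod, C1qtnf3, Aspn and Fndc1 the line of rat 15 slopes the other way from that of rat 4.

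Of 18 measured mast cell and basophil markers, 3 were higher and 0 lower at the unadjusted threshold, where 0.831% of all named genes were higher and 1.07% lower. Besides Mcpt1 these were Il1rl1, the receptor of interleukin-33 (0.24, SE 0.09, higher in 6 of 6 rats), and Cpa3, a mast cell carboxypeptidase (0.21, SE 0.09, higher in 5 of 6 rats). Other defining members had different estimates, with -0.24 for the tryptase Tpsb2, 0.02 for Kit and 0.05 for the basophil protease Prss34. The mean level of the list ranged from -0.07 to 0.15 on the Li+ arrays and from -0.185 to 0.28 on the Ctrl arrays, so the groups overlapped. The lowest of these levels, and the lowest values of Mcpt1 (8.40), Il1rl1 (8.34) and Cpa3 (10.53), were on the Ctrl array of rat 10.

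Of 25 measured macrophage markers, C1qc, a chain of complement C1q, was the 1 member lower (-0.23, SE 0.09), and 0 were higher. Of 35 measured interferon-stimulated genes, Ifi35 was the 1 member lower (-0.17, SE 0.07, lower in 6 of 6 rats), and 0 were higher. These counts are at an unadjusted p under 0.05, where 1.07% of all named genes were lower and 0.831% higher. Neutrophil, osteoclast, endothelial, adipocyte, B cell and T cell lists each had 0 members higher and 0 lower. In the mitochondrial respiratory chain 44 of 58 members had a negative estimate, where 9557 of the 18166 named genes had one, and 0 passed the unadjusted threshold. On the Ctrl array of rat 10 that list had its highest level (0.26), where the other Ctrl arrays lay between -0.08 and -0.01, and within the other 5 rats the mean difference lay between -0.04 and 0.08.

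The array also carried probe sets for microRNA genes, which measure the precursor transcripts and not the mature RNAs. Mature microRNAs are short RNAs that pair through their seed with target mRNAs and lower their translation or stability. Of 363 measured, 7 were higher and 7 lower at an unadjusted p under 0.05, where 0.831% of all named genes were higher and 1.07% lower. Only 69 of the 363 had a mean above the median signal, against 11151 of the 18166 named genes. Of those 11151, 48 were higher and 65 lower at that threshold, a smaller share than over all named genes. The microRNA counts are therefore not set against genes of like signal. Of the 14 microRNA genes, the 6 with the same direction in 6 of 6 rats are described, and since low p values go with such agreement their number is no result. All 14 were matched to RefSeq (build GRCr8), and the mature sequences of the 6 are shown because they are the products these precursors would give, with the seed, bases 2 to 8, in capitals. Those higher with Li+ were Mir143, Mir30c1 and Mir216b:
rno-miR-143-3p: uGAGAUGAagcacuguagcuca
rno-miR-143-5p: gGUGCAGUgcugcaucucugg
rno-miR-30c-5p: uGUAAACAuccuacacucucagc
rno-miR-30c-1-3p: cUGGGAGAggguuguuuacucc
rno-miR-216b-5p: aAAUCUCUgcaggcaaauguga
rno-miR-216b-3p: cACACUUAcuuguagagauu
Those lower with Li+ were Mir380, Mir3551 and Mir205:
rno-miR-380-5p: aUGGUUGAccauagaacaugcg
rno-miR-380-3p: uAUGUAGUaugguccacaucu
rno-miR-3551-5p: uCUUCACCaugguguuuuugacau
rno-miR-3551-3p: uGAAAUUCaccaugguggguaaa
rno-miR-205: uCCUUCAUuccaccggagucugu

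Mir143 lies on chromosome 18, Mir30c1 on chromosome 5, Mir216b on chromosome 14, Mir380 on chromosome 6, Mir3551 on chromosome X and Mir205 on chromosome 13. No seed was shared within these sequences. Within the RefSeq entries used here, 4 mature rat microRNAs carry the seed of rno-miR-30c-5p, the others being rno-miR-30a-5p, rno-miR-30e-5p and rno-miR-384-5p. MicroRNAs outside these entries were not searched, so the seed may be shared more widely. Mir143, the precursor of a microRNA known from smooth muscle and mesenchymal cells, was the 1 of the 6 with a signal above the median. It had a lowest value of 7.78, a median of 8.03 and a highest value of 8.15 on the Li+ arrays, against 7.25, 7.75 and 7.98 on the Ctrl arrays, with a log2 fold change of 0.29 (SE 0.11, unadjusted p = 0.0337). The groups overlapped, and the within-rat difference was 0.91 in rat 10 and between 0.05 and 0.38 in the other 5 rats.

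Mir30c1 had a log2 fold change of 0.26 (SE 0.07) and Mir216b of 0.22 (SE 0.07). Mir380 had -0.34 (SE 0.10), Mir3551 -0.21 (SE 0.06) and Mir205 -0.17 (SE 0.06). These 5 lay below the median signal, between 2.31 and 5.95 on the Li+ arrays and between 2.49 and 5.84 on the Ctrl arrays. The adjusted p of each was 0.985 in limma's test.

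The same comparison was made at day 28 in 6 other rats. Of the 345 named genes at an unadjusted p under 0.05 at day 7, 171 (49.6%) had the same sign at day 28, and 55.5% of all named genes did. At day 28, 544 of the 18166 named genes had an unadjusted p under 0.05, counted in both directions. Whether the 345 genes passed there more often than all named genes was not tested. Of the 345, 10 had an unadjusted p under 0.05 on both days with the same sign. Ankrd34c was among them, with a log2 fold change of 0.63 at day 7 and 0.67 at day 28. Ptcd3 had 0.27 at day 7 and 0.38 at day 28. Ankrd34c and Ptcd3 lay above the median signal, and the others of the 10 lay below it. Another 4 genes passed that threshold on both days with opposite signs.

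Of the 12 lower genes with the smallest p at day 7, 11 had a log2 fold change between -0.05 and 0.11 at day 28, and LOC691939 had 0.24. The 12 were chosen by their day 7 values, so smaller estimates at day 28 can follow from that choice alone. For these genes the differences between the days reuse the day 7 values, and their standard errors do not allow for the choice. Emd had -0.24 at day 7 and 0.02 at day 28, and the difference between the days was 0.25 with a standard error of 0.08. Map1lc3a had -0.30 at day 7 and 0.02 at day 28, and Cnpy3 had -0.26 at day 7 and 0.00 at day 28. Dkk1 had 0.38 at day 7 and -0.30 at day 28, a difference of -0.68 with a standard error of 0.23. In the interaction of implant and day, 0 probe sets passed an adjusted p of 0.05 in limma's test and 1320 had an unadjusted p under 0.05, so that none of these differences between the days held after adjustment.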

How the data were processed

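Gene expression was measured with Affymetrix Rat Gene 2.0 ST arrays, 1 for each implant site. The deposited values were log2 signals, 1 per probe set and array, from normalization and summary by the authors with RMA in Affymetrix Expression Console 1.1.2, and they were used as deposited. RMA brings the signals of the single probes to the same distribution on all arrays, so a shift shared by most genes cannot be read from these values. The medians of the probe set values still differed, with 7.231 on the Ctrl array of rat 10 and 7.324 on its Li+ array. Of 36685 probe sets, 190 controls were left out. Of the 36495 tested, 18511 had 1 gene symbol, 575 several and 17409 none in the platform annotation, and 18394 were found in RefSeq (GRCr8). A gene with more than 1 probe set was read from that with the highest average over the 24 arrays, which left 18166 named genes.

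Li+ and Ctrl arrays were compared with limma 3.58.1 in R 4.3.3, with the rat as a block, two-sided tests and Benjamini-Hochberg adjustment over all probe sets tested. Arrays with the same rat number deviated together (median r 0.333, from 0.117 to 0.444, against -0.0613 for different rats), and each rat carried both implants. The difference between the days was an interaction term over 24 arrays. The scripts were tested on simulated data. P-values of limma rest on the spread between these rats, which limma draws towards a spread estimated from all probe sets fitted. Named genes were the 12 higher and 12 lower with the smallest p, the 5 higher and 5 lower with the largest change and the 10 with the largest spread, all above the median signal, any probe set past the adjusted test, 16 genes the study followed, named genes beyond 1.5-fold at an unadjusted p under 0.05, and up to 4 members of each of 39 lists with up to 2 that define it. Other genes named were chosen after their values were seen. The members and lists were chosen with earlier results of these data known. The level of a list averages its members per array, each centred on its own average over the 12 arrays. Alternatives were no block, a random block, the paired t-test of the Methods, median centring, signal and symbol filters, an intensity trend, all 24 arrays, and leaving out each rat. No hybridization batch was given in the sources used here. Figures were drawn with matplotlib 3.10.9 in Python 3.11.15.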

Additional observations from a re-analysis of the deposited data

Results flagged for a closer look

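In 190 groups of 6 arrays examined (the named genes and the gene lists, in Li+ and in Ctrl), 17 had 1 value that stood clearly apart from the other 5. A rate of 1 in 20 groups would give 9.5. Many of the genes were chosen by their values on these same arrays, so that rate is no reference for the 17. Of the 17, 11 were the Ctrl array of rat 10. Genes and lists are correlated, so these are not independent.

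On that array, Cnpy3 (9.86), Map1lc3a (9.31), Slc39a11 (9.76), Ap1s1 (10.12), Hsd17b8 (9.53) and Csnk2b (11.36) were above all other Ctrl arrays. Smad2 (9.61) and the probe set 17601731 (3.50) were below them. The lists of AP-1 subunits (0.247), the mitochondrial respiratory chain (0.26) and cytosolic ribosomal proteins (0.209) had their highest Ctrl level there.

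Outside it, Fndc1 was high on the Li+ array of rat 11 (9.21), the others lying between 7.78 and 8.24. Rac2 was low on the Li+ array of rat 4 (12.23), and the macrophage list was low on the Li+ array of rat 10 (-0.159). Fosl1 was low on the Ctrl array of rat 11 (7.70), the neutrophil list was low on the Ctrl array of rat 4 (-0.522), and the skeletal muscle list was high on the Ctrl array of rat 15 (0.649).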

How the results depend on the processing

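Without the replicate block, 802 probe sets and 227 named genes had an unadjusted p under 0.05, against 1323 and 345 with the pairing. The paired t-test of the Methods gave 0 probe sets after adjustment, 607 named genes, and 20 probe sets beyond 1.5-fold, against 32. With only the 18247 probe sets above the median signal the counts were 0 after adjustment, 471 probe sets, 153 named genes and 1 beyond 1.5-fold. With only the 18511 single-symbol probe sets they were 0, 500 and 1 probe sets, with 488 named genes. Both filters left out 17601731 before testing, so that it could not pass, and the main counts came from 36495 probe sets. With the spread of all 24 arrays, 0 passed adjustment and 638 named genes had an unadjusted p under 0.05. A random block, median centring and an intensity trend kept every count within 1.5 times.

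Leaving out 1 rat at a time gave 1220 to 1862 probe sets, 283 to 604 named genes (the highest without rat 15) and 35 to 65 probe sets beyond 1.5-fold (35 without rat 10, 49 to 65 without any of the others), and 1 probe set after adjustment each time. Of the 345 named genes, 181 to 206 kept their direction and an unadjusted p under 0.05. Estimates that changed sign when a rat was left out were those of Cxcl13 (-0.17 to 0.47), Aspn (-0.37 to 0.17), Plet1 (-0.37 to 0.10), Panx3 (-0.24 to 0.24), Ctnnb1 (-0.00656 to 0.10, the lowest without rat 10), Prkca (-0.0112 to 0.11, the lowest without rat 10), Prss34 (-0.0608 to 0.12) and Sfrp5 (-0.36 to 0.0901, the highest without rat 10). Their causes were not tested. The 6 rats, the unknown leg and site of each array and the mixed tissue of each sample limit what can be told.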

Other observations

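Among probe sets at an unadjusted p under 0.05, 970 had no single gene symbol, 5.39% of their number, and 353 single-symbol probe sets, 1.91% of theirs. When only single-symbol probe sets were tested, 1 was beyond 1.5-fold at that threshold, against 32 of all probe sets.

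Of the genes at an unadjusted p under 0.05 on both days with opposite signs, Or13c7e had 0.22 at day 7, and its difference between the days was -0.46 with a standard error of 0.11 and an adjusted p of 0.9995 in limma's test. Its day 7 signals were low, from 4.39 to 4.83 on the Li+ arrays and from 4.17 to 4.68 on the Ctrl arrays, below the median signal of 7.30.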
